A study of Homo with 2 samples.

Results

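The respiratory chain genes described here are the subunit genes of the 5 complexes of oxidative phosphorylation, taken from both genomes of the cell. The rule that picks them reads the gene symbol: it takes every gene whose symbol begins as those of the mitochondrially encoded ND, CO, ATP and CYB genes, or of the NDUFA, NDUFB, NDUFC, NDUFS, NDUFV, UQCR, SDHA to SDHD, COX4 to COX8 and ATP5 families. This gave 105 of the 28363 genes in the count tables, 102 of them in both tables. Of these, 13 are mitochondrially encoded and 92 are nuclear. The nuclear ones comprise 87 protein-coding genes and 5 noncoding neighbours that share a symbol (NDUFB2-AS1, UQCRB-AS1, NDUFV2-AS1, UQCRFS1-DT and NDUFA6-DT). The symbols leave out NDUFAB1, CYC1, CYCS and DMAC1, which also serve the chain and are given as a list of their own.

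The data are single-cell RNA counts from 2 libraries of 1 group: day 4 human blastoids, embryo-like aggregates of the established human embryonic stem cell line KhES1. After 24 h of aggregation in microwells they grew in hydrogel, in DMEM to which 10% FBS (serum) and Y27632, a ROCK inhibitor, at 10 µM were added. The study used a single line for these samples, and nothing in the labels makes the libraries separate cultures. P-values therefore cover the spread between these libraries alone, which may be technical. There is no untreated or control group, and the comparisons are between barcodes within the libraries.

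Electrons from NADH enter the chain at complex I (NADH dehydrogenase) and those from succinate at complex II, which is also a citrate cycle enzyme. They pass through complex III and cytochrome c to complex IV, which reduces oxygen, and the proton gradient built on the way drives ATP synthesis by complex V. Complexes I, III, IV and V join core subunits made inside the mitochondrion with many subunits that are encoded in the nucleus and imported, whereas complex II is nuclear throughout. The 13 mitochondrial genes are copied as long transcripts from both strands and then cut into single messengers.

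The tables held 38665475 UMIs (unique molecular identifiers, each counting 1 captured transcript) in library 1 and 45208758 in library 2. Barcodes with at least 1000 detected genes numbered 1008 of 1988 and 1588 of 2601, with medians of 33774.5 and 23598.5 UMIs, and no upper limit was set on the mitochondrial share. No kept barcode sequence occurred in both libraries. A class with pluripotency markers, called epiblast-like, held 50 and 82 barcodes; the primitive streak genes MIXL1 and TBXT were also among its 10 leading genes. The clusters named trophectoderm/amnion-like from shared markers of those tissues held 547 and 657. Their 3 clusters had 12 of the 14 markers of that list detected, but TP63 was the only one among the 10 leading genes of any of them. Cluster 1, with most of the barcodes (463 and 559), was led by genes such as STMN2, PCDH9 and NCAM2. Cluster 3, with only 7 and 25, was led by genes such as DCC, CSMD3 and CNTN5. Some of these genes are known from neurons. Unnamed clusters 0, 2 and 5 detected 13, 12 and 12 of the same markers; DCN, of the mesenchyme list, was among the leading genes of clusters 0 and 2. The labels name the cell type as embryonic stem cells, whereas markers of pluripotency defined only this small class. Other clusters stayed unnamed; of these, cluster 5 (107 barcodes in each library) had a median of 3231 UMIs and cluster 0, led by PLCG2, had medians of 25151 and 4349.5 UMIs in libraries 1 and 2.

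The mitochondrial members gave most of the chain's UMIs. They made up 6.39% of all UMIs in library 1 and 6.22% in library 2 (6.31% ± 0.12, SD, n = 2). The 92 nuclear members made up 1.59% and 1.72% of the UMIs outside the mitochondrial genes (1.66% ± 0.097, SD, n = 2). In the median barcode 80.6% and 77.5% of the chain's UMIs came from the mitochondrial genome. The share of mitochondrial UMIs ranged from 0 to 65.5% of a barcode in library 1 and from 0 to 57.6% in library 2, with medians of 6.18% and 5.59%.

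Levels below are UMIs per 1000000 (CPM) summed over the kept barcodes, of all UMIs for mitochondrial genes and of UMIs outside them for nuclear genes. The 3' chemistry counts 1 end of each molecule, so levels were not divided by gene length. The 3 catalytic core subunits of complex IV stood highest. MT-CO2, which takes electrons from cytochrome c, had 11597 and 11230 CPM. MT-CO1, which holds the oxygen-reducing centre, had 10777 and 10083 CPM. MT-CO3 had 9861 and 9587 CPM. The levels of these genes lay in the same order in both libraries.

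MT-ATP6, the proton channel subunit of complex V, followed with 7875 and 8349 CPM, and MT-CYB, the mitochondrial subunit of complex III, with 7031 and 7338 CPM. The 7 subunits of complex I spread widely, from MT-ND4 (5616 and 5749 CPM) over MT-ND3 (3409 and 3181 CPM), MT-ND1 (2385 and 2272 CPM), MT-ND2 (2070 and 1876 CPM) and MT-ND5 (1799 and 1584 CPM) to MT-ND4L (639 and 493 CPM) and MT-ND6 (151 and 121 CPM). MT-ND6 is encoded on the opposite strand to the other 12. MT-ND1 and MT-ND2 kept their order in both libraries, and their gap exceeded the difference between the libraries for either gene.

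MT-ATP8 stood apart between the libraries, at 705 CPM in library 1 and 366 in library 2. In the RefSeq annotation of GRCh38.p14 MT-ATP8 lies at 8366 to 8572 of the mitochondrial genome and overlaps MT-ATP6 at 8527 to 9207. MT-ND4L (10470 to 10766) overlaps MT-ND4 (10760 to 12137) in the same way. The sources used here do not say how reads in such overlaps were assigned, so the levels of the short genes are uncertain.

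**Figure D1:**
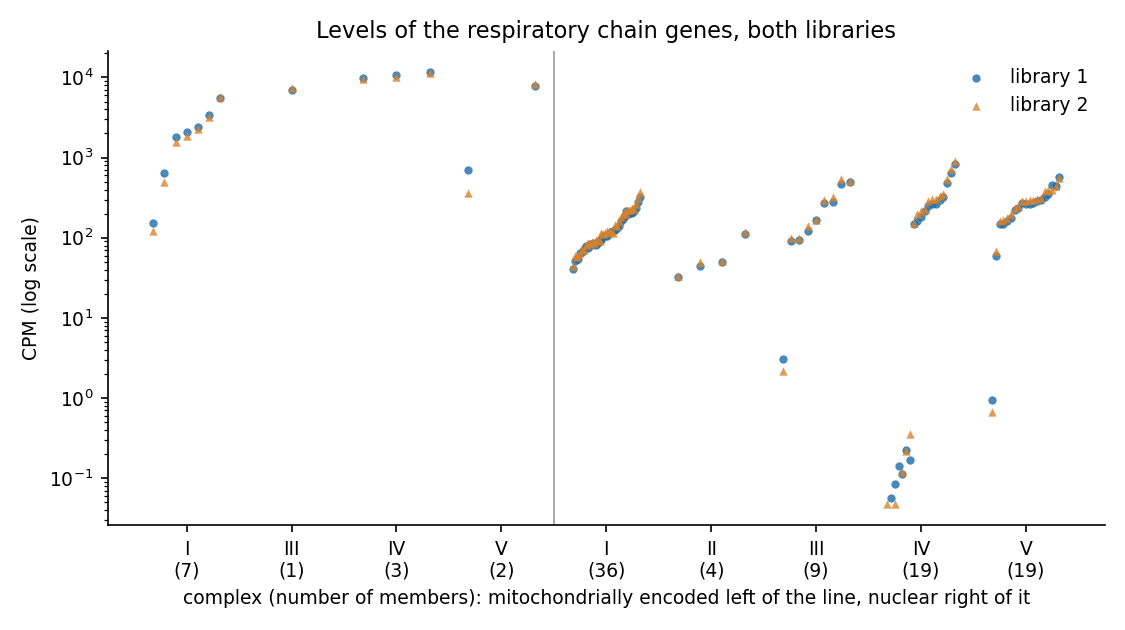
CPM of every protein-coding respiratory chain gene on a log axis, by complex and genome. A circle marks library 1 and a triangle library 2 (a gene at 0 in a library is not drawn there). The mitochondrial subunits of complex IV sit near 10000 CPM in both libraries, most nuclear subunits lie between 10 and 500 CPM, and a few tissue isoforms lie under 1 CPM.

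Nuclear subunits lay far lower. Of the 92, 6 had a mean of 500 CPM or more, 51 lay between 100 and 500, 21 between 10 and 100, 3 between 1 and 10, and 11 under 1. COX7C, a small subunit of complex IV, was highest with 829 and 899 CPM. NDUFA4, named after complex I but now placed in complex IV, had 648 and 727 CPM. ATP5F1E, the epsilon subunit of the ATP synthase head, had 569 and 563 CPM. COX4I1, the general form of the largest nuclear subunit of complex IV, had 489 and 540 CPM. In complex III, UQCRB and UQCRH, which binds cytochrome c1, reached 493 and 518 CPM and 472 and 538 CPM. In complex I, NDUFA13 led with 324 and 377 CPM.

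Complex II was the least abundant. SDHA, its flavoprotein on chromosome 5 (218320 to 268746), had 32.4 and 33.0 CPM, and SDHB, its iron-sulfur subunit, had 50.3 and 51.8 CPM. The membrane anchors SDHC and SDHD had 110 and 118 CPM and 44.1 and 49.5 CPM. SDHA was the lowest of the 4 in both libraries. Summed by complex, nuclear members gave 4636 and 5050 CPM for complex I, 237 and 253 for complex II, 1988 and 2176 for complex III, 4068 and 4540 for complex IV and 4932 and 5217 for complex V.

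Several subunits exist as isoforms for particular tissues, and here the general form prevailed in each pair. COX4I1 had 17432 and 22530 UMIs against 6 and 15 of COX4I2, the lung form tied to low oxygen. COX6A1 had 8922 and 11971 UMIs, whereas COX6A2, the form of heart and muscle, had 5 and 0. COX6B1 had 9392 and 12577 UMIs and the testis form COX6B2 had 8 and 9. COX7A2 had 11374 and 14669 UMIs and the muscle form COX7A1 had 0 and 2. COX8A had 5756 and 8360 UMIs and COX8C had 2 and 0. NDUFA4 had 23111 and 30356 UMIs and its relative NDUFA4L2, known as a hypoxia-induced gene, had 4 and 5. UMIs of the rarer forms were this few in both libraries, and a library with 0 UMIs still allows up to 3.

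The c subunit of the ATP synthase rotor is encoded by 3 genes that yield the same mature protein. ATP5MC3 had 322 and 381 CPM, ATP5MC2 had 290 and 302 CPM and ATP5MC1 had 58.7 and 69.3 CPM. ATP5MC1 was thus the lowest of the 3 in both libraries, and ATP5MC3 lay above ATP5MC2 in both. ATP5IF1, the inhibitor that stops the synthase from running backwards, had 232 and 253 CPM. COX7A2L, a relative of COX7A2 that joins complexes III and IV, had 147 and 152 CPM.

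Of the 92 nuclear members, 80 passed the filter on low counts and were tested; 12 did not, 9 of which were in both tables. The one with the most UMIs among these was UQCRHL, a near-identical copy of UQCRH, with 110 and 91 UMIs. Reads of these copies cannot be told apart with certainty. The others were the 6 isoforms given above, COX7B2, ATP5MGL and the noncoding NDUFB2-AS1, UQCRB-AS1 and UQCRFS1-DT.

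Barcodes with a larger mitochondrial share held a smaller share of the nuclear members. In UMIs per barcode, not divided by depth, both sums ran the same way, with Spearman's rho of 0.55 in library 1 and 0.68 in library 2. Among barcodes of 5000 to 20000 UMIs this rho was -0.57 and -0.21, and over 20000 UMIs it was 0.39 and 0.36. Barcodes were put into 5 ranges by their share of mitochondrial UMIs: under 1% (94 and 79 barcodes), 1 to 5% (222 and 584), 5 to 10% (513 and 669), 10 to 20% (108 and 187) and over 20% (71 and 69). These are ranges of a continuous share and no cell types; 17 and 21 barcodes lay between 18% and 22%, and 9 and 10 between 0.8% and 1.2%. Because mitochondrial genes cut the ranges, their own values are a description only. The tests were run on nuclear genes, with mitochondrial genes left out of the table and of the library sizes. All 4 comparisons share the same barcodes of 5 to 10% as their reference.

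The summed mitochondrial members were alike in number from the reference range upwards. The median barcode held 2544 and 2206 mitochondrial member UMIs at 5 to 10%, 2459 and 2305 at 10 to 20%, and 2375 and 2206 over 20%. Nuclear members fell over the same ranges, with medians of 547 and 485 UMIs, then 50 and 100, then 17 and 15. The median barcode's total of all UMIs fell with them, from 37555 and 32920 over 20112 and 16842 to 7217 and 6854. In both libraries the higher share thus came with fewer UMIs of other genes and not with more mitochondrial ones.

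At the lower end the order was different. Barcodes of under 1% held medians of 3 and 5 mitochondrial member UMIs and of 70 and 58 nuclear ones, among medians of 3058 and 3701 UMIs in all. Between 1 and 5% the libraries parted: medians were 2085 and 328.5 mitochondrial and 789 and 155 nuclear member UMIs, at 49480.5 and 9781 UMIs per barcode. Cluster 0 supplied 40 of the 222 and 278 of the 584 barcodes in that range.

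As a share of the UMIs outside the mitochondrial genes, nuclear members made up 2.44% and 2.36% under 1%, 1.75% and 1.89% at 1 to 5%, and 1.56% and 1.69% at 5 to 10%. They made up 0.748% and 1.02% at 10 to 20% and 0.468% and 0.575% over 20%. The share fell from range to range in both libraries. Of the 80 tested members, 69 in library 1 and 73 in library 2 fell stepwise from the reference range over 10 to 20% to over 20%. The same count over all genes is not given here. Of all genes, 16.4% were called lower at 10 to 20% and 17.5% over 20%.

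Messengers of cytosolic ribosomal proteins moved alongside. They made up 23.3% and 21.0% of UMIs outside the mitochondrial genes under 1%, 15.4% and 16.7% at 5 to 10%, and 4.25% and 5.52% over 20%. Nuclear members per 100 ribosomal protein UMIs were at 10.46 and 11.2, 10.1 and 10.7, 10.2 and 10.1, 10.7 and 10.2, and 11.01 and 10.4 from the lowest range to the highest. Per UMI of mitochondrial ribosomal proteins, also nuclear genes, they were not level, at 3.91 and 3.81 under 1%, 3.52 and 3.66 at 5 to 10% and 2.28 and 2.64 over 20%. RNA that is kept in the nucleus (MALAT1, NEAT1, KCNQ1OT1 and MEG3 summed) made up 1.12% and 0.912% under 1%, 1.85% and 1.42% at 1 to 5%, 1.72% and 1.56% at 5 to 10%, 2.09% and 1.91% at 10 to 20%, and 2.00% and 1.76% over 20%. It was thus highest at 10 to 20% and followed no single direction. Depth, ribosomal messengers and retained RNA differ between the ranges, and their part in the differences below was not tested.

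**Figure D2:**
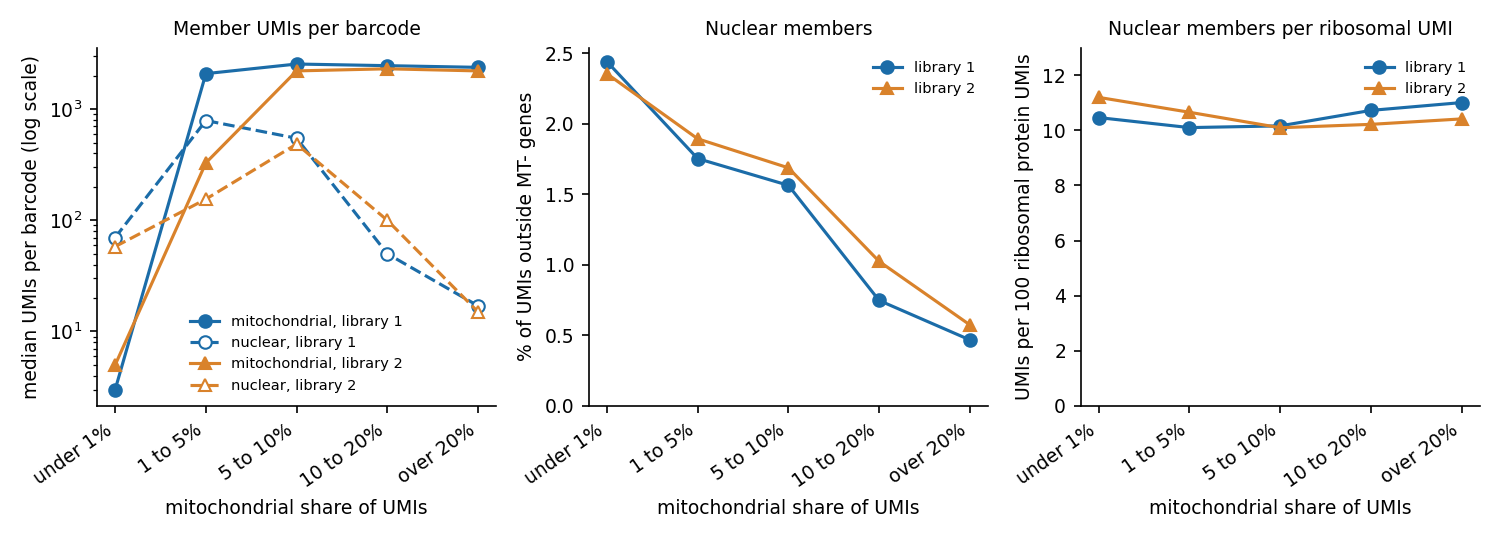
Left, median UMIs per barcode of mitochondrial (filled, solid) and nuclear members (open, dashed) on a log axis, by range of mitochondrial share and library; middle, nuclear members in percent of UMIs outside the mitochondrial genes; right, nuclear members per 100 ribosomal protein UMIs. From 5 to 10% upwards the mitochondrial medians stay between 2206 and 2544 while the nuclear ones fall to 17 and 15, and the ratio to ribosomal UMIs stays between 10.1 and 11.2 over all ranges.

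Over 20% mitochondrial UMIs, every tested nuclear subunit of complexes III, IV and V was lower, as were most of complex I. Of the 80 tested nuclear members 74 were lower and 0 higher at an adjusted p under 0.05 in edgeR's quasi-likelihood test with Benjamini-Hochberg adjustment over all genes, while 26.2% of all 14393 genes were called, 17.5% lower and 8.74% higher. Their median log2 fold was -1.89, against -0.07 for all genes tested. The largest falls among them were those of ATP5MC3, COX7A2, NDUFB7, NDUFA4, ATP5MC1, NDUFB3, COX6C and ATP5PF.

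ATP5MC3, on chromosome 2 (175176258 to 175181710), had 310 and 354 CPM at 5 to 10% and 36.2 and 55.7 CPM over 20%. This was the largest fall among the tested members, with a log2 fold of -3.13 (SE 0.25, adjusted p = 0.000113 in edgeR), and it rests on 15 and 22 UMIs over 20%. COX7A2, a small subunit of complex IV, had 311 and 340 CPM against 55.4 and 78.4 CPM (log2 fold -2.56, SE 0.23). For both genes the libraries of the 2 ranges did not overlap.

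NDUFB7, in the membrane arm of complex I, had 142 and 166 CPM against 26.5 and 37.96 CPM (log2 fold -2.53). NDUFA4 had 623 and 683 CPM against 147 and 127 CPM (log2 fold -2.52, SE 0.23, adjusted p = 0.000113 in edgeR). NDUFA4 is one of the most abundant nuclear members and kept 61 and 50 UMIs over 20%. ATP5MC1 had 58.1 and 65.8 CPM against 9.64 and 17.7 CPM (log2 fold -2.46), from only 4 and 7 UMIs over 20%. NDUFB3, also of the membrane arm, had 89.3 and 112 CPM against 26.5 and 17.7 CPM (log2 fold -2.44). COX6C had 297 and 330 CPM against 53.0 and 96.2 CPM (log2 fold -2.35). ATP5PF, a part of the stalk that holds the synthase head, had 268 and 288 CPM against 62.7 and 70.9 CPM (log2 fold -2.33).

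By complex, 34 of the 36 tested nuclear subunits of complex I were lower (median log2 fold -1.66), 2 of 4 of complex II (-0.81), 8 of 8 of complex III (-2.05), 12 of 12 of complex IV (-2.16) and 18 of 18 of complex V (-1.996). The 6 members that did not pass were NDUFS1, NDUFA10, SDHA, SDHB and the noncoding NDUFV2-AS1 and NDUFA6-DT. SDHA had 33.4 and 32.9 CPM at 5 to 10% and 45.8 and 35.4 CPM over 20% (log2 fold 0.03, SE 0.24, adjusted p = 0.94 in edgeR). SDHB had 49.1 and 50.01 CPM against 36.2 and 55.7 CPM (log2 fold -0.39), so that its libraries overlap between the ranges. Its partners SDHC and SDHD did pass, with log2 folds of -1.24 and -1.54.

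NDUFS1, the largest core subunit of complex I, had 90.4 and 85.2 CPM at 5 to 10%, 94.7 and 97.1 CPM at 10 to 20%, and 74.7 and 73.4 CPM over 20% (log2 fold -0.51, SE 0.19, adjusted p = 0.066 in edgeR). NDUFA10 had 74.3 and 69.6 CPM against 57.9 and 75.9 CPM (log2 fold -0.38). Across 77 members with a span in the annotation, the fall over 20% was smaller in longer genes (Spearman's rho 0.47 between span and log2 fold) and larger in more abundant ones (rho -0.58 between log2 level and log2 fold). These are correlations across genes, which are not independent replicates, and span and level were not separated from each other.

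The size of these falls depends on the scaling, since the table holds many more lower than higher genes. With DESeq2's size factors in place of TMM the median over all genes moved from -0.07 to 0.05 and the share of higher genes among the called rose from 33.3% to 45.04%; 72 members stayed lower and their median was -1.78. On plain CPM, with no such scaling, the median fold of the members was -1.69 in library 1 and -1.48 in library 2, and that of all genes 0.23 and 0.27.

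The cells over 20% came mostly from the trophectoderm/amnion-like class, which held 45 of 71 and 46 of 69 of them, and 298 of 513 and 326 of 669 in the reference range. Within that class alone 74 of 81 tested nuclear members were lower, with a median log2 fold of -2.30. The shares of all genes called that are given above come from the fit over all barcodes. Those of this class alone are not given here. Its nuclear members made up 1.44% and 1.55% of UMIs outside the mitochondrial genes at 5 to 10% and 0.402% and 0.359% over 20%. Among barcodes of 5000 to 20000 UMIs in every range, an alternative chosen after seeing the data, the median was -1.57 and 0 of 78 members passed in edgeR. There 52 had an unadjusted p under 0.05, and 0 of all 7674 genes passed, with 55 and 43 barcodes over 20% and 24 and 72 in the reference range.

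At 10 to 20% the members were already lower. Here 72 of the 80 passed, all lower, with a median log2 fold of -1.03, while 22.1% of all genes were called, 16.4% lower and 5.7% higher. The 8 largest falls were those of ATP5MC3 (-1.52), COX5A (-1.45), NDUFA4 (-1.39), NDUFA8 (-1.38), ATP5MK (-1.35), NDUFA6 (-1.31), COX7B (-1.30) and NDUFB3 (-1.29). COX5A, which joins MT-CO1 early in the assembly of complex IV, had 203 and 210 CPM at 5 to 10% and 69.2 and 103 CPM at 10 to 20%. Its level in both libraries was lower than in either library of the reference range.

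At 1 to 5%, 0 of the 80 nuclear members passed in edgeR, with 3 at an unadjusted p under 0.05, while 0.0139% of all genes were called. The median log2 fold was 0.22, and COX5A (0.40) and ATP5MC3 (0.39) had the highest values. NDUFS1 had -0.03.

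Under 1% mitochondrial UMIs, nuclear members were higher where the transcripts of their mitochondrial partners were nearly missing. Of the 80 tested, 49 were higher and 0 lower in edgeR's quasi-likelihood test, while 6.82% of all genes were called and 5.63% were higher. The median log2 fold was 0.77, against -0.04 for all genes. On plain CPM, with no TMM scaling, it was 0.59 in library 1 and 0.44 in library 2. That of all genes was -0.28 and -0.16, so the fitted medians lie above those of plain CPM. By complex 18 of 36 subunits of complex I, 1 of 4 of complex II, 6 of 8 of complex III, 11 of 12 of complex IV and 13 of 18 of complex V were higher.

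These calls were found only with cluster 5 included. It held 67 of the 94 and 41 of the 79 barcodes under 1%. Without it 0 of the 80 members passed in edgeR, with 2 at an unadjusted p under 0.05 and a median log2 fold of 0.08. That fit has fewer barcodes, and its count of all genes passing is not given here. That cluster had 2.86% and 2.84% of its UMIs outside the mitochondrial genes in nuclear members and 26.9% and 25.6% in ribosomal protein genes. It is led by LTB, MMP9, PGF and MIR302CHG, and SFRP2 of the epiblast list is also among its 10 leading genes. Of its best list, trophectoderm or amnion, 0 markers are among them. It has no name for that reason, and its median depth is also under 1/3 of that of the libraries. The other barcodes under 1% were too few to be tested in the trophectoderm/amnion-like class (14 and 13), where nuclear members made up 1.52% and 0.217%.

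The largest rise under 1% was that of COX5A, from 203 and 210 CPM at 5 to 10% to 376 and 394 CPM (log2 fold 1.14, SE 0.18, adjusted p = 0.0136 in edgeR). UQCR11, the smallest subunit of complex III, had 255 and 291 CPM against 526 and 485 CPM (log2 fold 1.14). UQCRQ, which sits beside cytochrome b, had 159 and 159 CPM against 314 and 264 CPM (log2 fold 1.11). In these genes both libraries under 1% exceeded both of the reference range. NDUFA4 (1.08), NDUFS7 (1.05), ATP5MC3 (1.03), NDUFA6 (1.00) and ATP5MK (1.00) followed. NDUFS1 had 65.9 and 58.7 CPM under 1% against 90.4 and 85.2 CPM and did not pass (log2 fold -0.26).

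**Figure D3:**
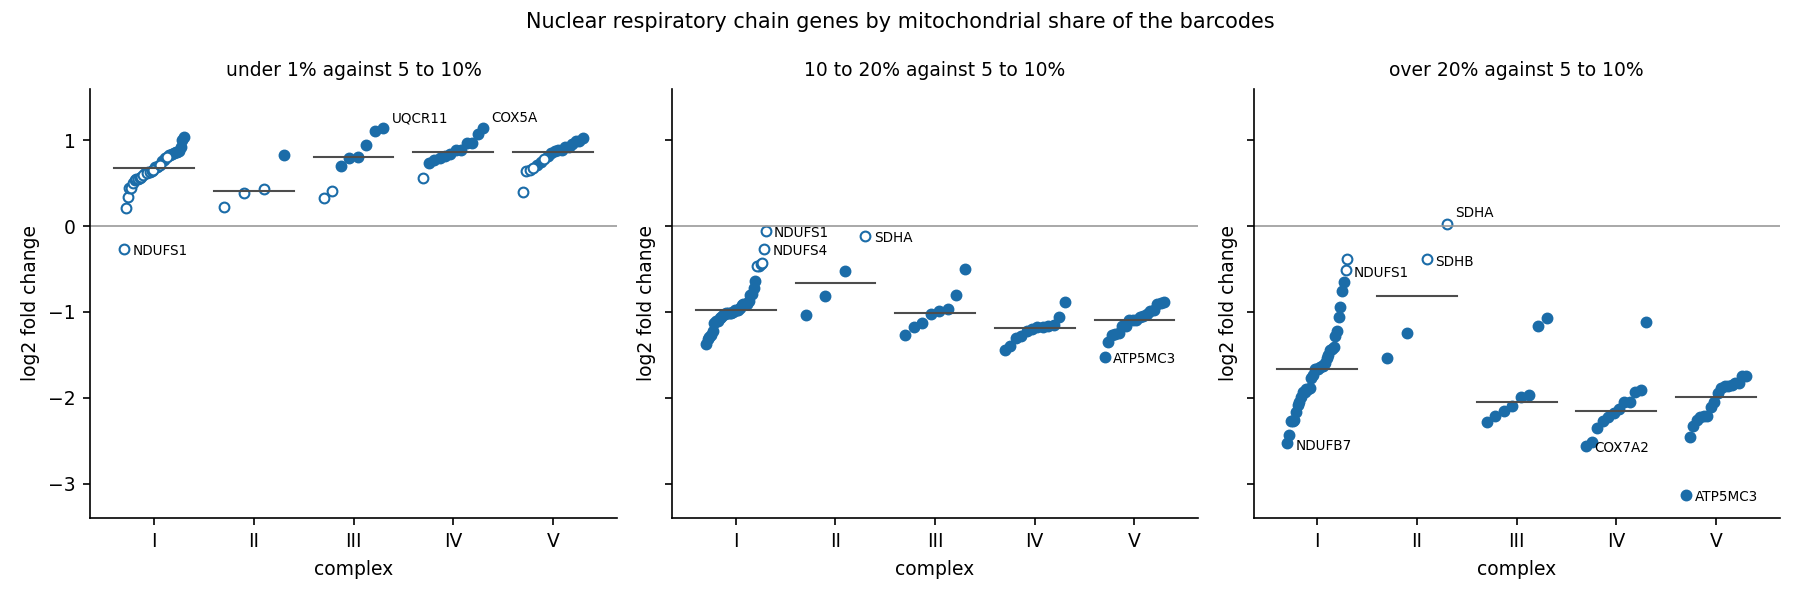
Log2 fold changes of the tested protein-coding nuclear members by complex, each range against 5 to 10%. Filled points have an adjusted p under 0.05 in edgeR and open ones do not, and lines are medians of the complex. Of the protein-coding members, those over 20% lie between -3.13 for ATP5MC3 and 0.03 for SDHA, and under 1% all but NDUFS1 lie above 0; the panels share the reference range.

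Across all kept barcodes the mitochondrial share and the nuclear members' share ran in opposite directions, as a description, but not in every cluster. Spearman's rho was -0.45 over 1008 barcodes of library 1 and -0.27 over 1588 of library 2. Within the trophectoderm/amnion-like class it was -0.45 (547 barcodes) and -0.46 (657). In the epiblast-like class it was -0.54 over 50 barcodes and 0.07 over 82, so that the libraries differ there. In cluster 0 it was 0.03 over 163 barcodes and 0.18 over 514, and in cluster 6 it was 0.21 over 23 and 0.003 over 52. Nuclear members had a rho of 0.88 and 0.81 with cytosolic ribosomal protein genes, and of 0.88 and 0.79 with mitochondrial ribosomal proteins. These shares have the same denominator, UMIs outside the mitochondrial genes, whereas the mitochondrial share is of all UMIs. In cluster 5 the rho with cytosolic ribosomal protein genes was 0.45 and 0.59. Points share library and depth: depth itself had a rho of -0.16 and 0.13 with the mitochondrial share and of 0.21 and 0.17 with the nuclear one. Within the trophectoderm/amnion-like class depth had a rho of -0.54 and -0.39 with the mitochondrial share and of 0.58 and 0.52 with the nuclear one, of about the size of the relation itself. Among barcodes of 5000 to 20000 UMIs rho was -0.59 (173 barcodes) and -0.42 (317).

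Between the classes the picture was another. Trophectoderm/amnion-like barcodes had lower levels of many nuclear subunits than epiblast-like ones. Mitochondrial genes moved in both directions, at shares near those of all genes tested. Mitochondrial members made up 6.64% and 6.72% of UMIs in the former and 7.02% and 5.68% in the latter, which overlap. Nuclear members made up 1.45% and 1.55% of UMIs outside the mitochondrial genes against 1.80% and 2.06%, without overlap. Classes were formed from one random part of the UMIs without any member, and tested on the other part, in which CPM below are of all UMIs.

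Of the 80 nuclear members 37 were lower and 0 higher in edgeR's quasi-likelihood test, while 52.8% of all 14082 genes were called, 26.1% lower and 26.8% higher. The share called is thus below that of all genes when both directions are taken. The median log2 fold was -0.25, against 0.02 for all genes. On plain CPM, with no TMM scaling, it was -0.32 in library 1 and -0.40 in library 2, and that of all genes -0.12 and -0.09. The fitted medians thus lie above those of plain CPM, and a fitted fold near 0 can differ in sign from the CPM given. Lower were 19 of 36 subunits of complex I, 2 of 4 of complex II, 4 of 8 of complex III, 5 of 12 of complex IV and 7 of 18 of complex V. In these classes nuclear-retained RNA made up 2.10% and 1.86% in trophectoderm/amnion-like and 0.626% and 0.612% in epiblast-like barcodes. Medians of depth were 34831 and 30327 UMIs against 52668.5 and 49981.5, and their part in the differences was not tested.

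ATP5PD, a stalk subunit of the ATP synthase on chromosome 17 (75038863 to 75046969), showed the largest fall among the members. It had 301 and 329 CPM in epiblast-like and 114 and 122 CPM in trophectoderm/amnion-like barcodes (log2 fold -1.30, SE 0.12, adjusted p = 5.24e-08 in edgeR). ATP5MC1 had 95.0 and 112 CPM against 42.9 and 45.4 CPM (log2 fold -1.11, SE 0.12, adjusted p = 4.12e-07 in edgeR). Both genes differed far more between classes than between libraries.

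The other 2 genes for the same c subunit were lower by less: ATP5MC3 had a log2 fold of -0.51 and ATP5MC2 one of -0.31. NDUFA6, a subunit of complex I near the joint of its arms, had 118 and 126 CPM in epiblast-like against 59.4 and 68.8 CPM (log2 fold -0.81). UQCRH had 658 and 830 CPM against 395 and 423 CPM (log2 fold -0.74). NDUFS6 had 245 and 351 CPM against 161 and 172 CPM (log2 fold -0.72), COX5A 264 and 319 against 166 and 170 CPM (-0.68), NDUFB4 282 and 335 against 167 and 191 CPM (-0.66) and NDUFB9 172 and 170 against 103 and 97.1 CPM (-0.66). In each of these the classes did not overlap.

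Complex II was split again. SDHB had 72.3 and 68.4 CPM in epiblast-like against 37.4 and 44.3 CPM (log2 fold -0.66, SE 0.13, adjusted p = 0.000449 in edgeR) and SDHD fell by 0.38 on the log2 scale. SDHA had 25.8 and 24.8 CPM against 29.2 and 26.5 CPM and did not pass (log2 fold 0.26, SE 0.17), nor did SDHC (-0.10). Among the general isoforms COX8A (-0.65) and COX6A1 (-0.38) passed, while COX4I1 (-0.11), COX6B1 (-0.15), COX7A2 (-0.16), COX7A2L (0.00) and NDUFA4 (-0.08) did not. ATP5IF1 was lower, with 302 and 296 CPM in epiblast-like against 184 and 201 CPM (log2 fold -0.51). COX7C, the most abundant nuclear member, had 749 and 916 CPM against 747 and 801 CPM (log2 fold 0.02).

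**Figure D4:**
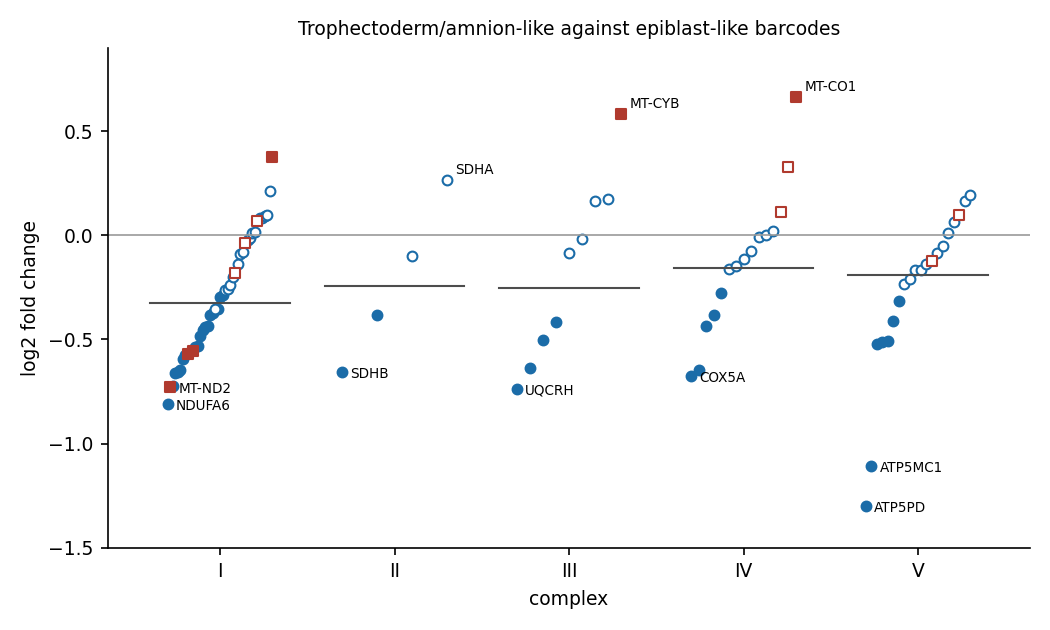
Log2 fold changes of the tested protein-coding members between trophectoderm/amnion-like and epiblast-like barcodes, by complex. Circles are nuclear and squares mitochondrial, filled where the adjusted p was under 0.05 in edgeR. Lines are medians of the nuclear members. Filled circles all lie under 0, down to -1.30 for ATP5PD, whereas filled squares lie on both sides, from -0.73 for MT-ND2 to 0.66 for MT-CO1.

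Of the 13 mitochondrial genes 3 were higher and 3 lower in trophectoderm/amnion-like barcodes. That is 46.2% called, against 52.8% of all genes, of which 26.8% were higher and 26.1% lower. The split is thus near that of all genes. MT-CO1 had 8696 and 7209 CPM in epiblast-like against 11729 and 11344 CPM (log2 fold 0.66, SE 0.14, adjusted p = 0.000447 in edgeR). MT-CYB had 5989 and 5406 CPM against 7515 and 8168 CPM (log2 fold 0.58). MT-ND5, the largest subunit of complex I from this genome, had a log2 fold of 0.37 (adjusted p = 0.0143 in edgeR), with 1732 and 1212 CPM against 1830 and 1630 CPM, so that its libraries overlap. It did not pass with called doublets removed, with barcodes of at least 5000 UMIs alone, with no library block or with another split of the UMIs. With that other split MT-ND6 did not pass either (adjusted p = 0.0537 in edgeR), and 4 of the 6 mitochondrial calls remained.

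MT-ND2 had 3727 and 2792 CPM in epiblast-like against 1852 and 1731 CPM (log2 fold -0.73, SE 0.14, adjusted p = 0.000212 in edgeR). MT-ND6 had 259 and 177 CPM against 144 and 123 CPM (log2 fold -0.57) and MT-ND1 had 4046 and 3151 CPM against 2252 and 2216 CPM (log2 fold -0.55). The other 7 did not pass: MT-CO2 (0.33), MT-CO3 (0.11), MT-ATP6 (0.10), MT-ND4 (0.07), MT-ND3 (-0.04), MT-ATP8 (-0.12) and MT-ND4L (-0.18). For MT-CO3, MT-ATP6, MT-ND4, MT-ND3 and MT-ATP8 the sign of the fold differed between the libraries.

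The same picture stands within the mitochondrial UMIs themselves, which needs no scaling to other genes. MT-ND2 made up 5.44% and 4.85% of them in epiblast-like and 2.79% and 2.57% in trophectoderm/amnion-like barcodes. MT-ND1 made up 5.83% and 5.63% against 3.40% and 3.31%. MT-CO1 made up 12.4% and 12.7% against 17.6% and 16.9%, and MT-CYB 8.50% and 9.46% against 11.4% and 12.2%. A share within a sum shows unequal change, not which gene changed. MT-ND1 and MT-ND2 lie next to each other in the genome (3307 to 4262 and 4470 to 5511), followed by MT-CO1 (5904 to 7445), which went the other way.

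Of the unnamed clusters, cluster 6 had 23 and 52 barcodes and was led by HOPX, PGF and S100P. Its best marker list was that of syncytiotrophoblast, with 6 of 8 markers detected but 0 among the 10 leading genes. APOA2, of the hypoblast list, was among the leading genes. Cluster 6 had shares of MT-CO1, MT-ND1 and MT-ND2 nearer to those of the epiblast-like class. MT-CO1 made up 11.9% and 11.2%, MT-ND1 5.32% and 5.40% and MT-ND2 4.81% and 5.58% of its mitochondrial UMIs. MT-CYB, at 10.3% and 10.5%, lay between the classes. Its nuclear members made up 2.07% and 2.37% of UMIs outside the mitochondrial genes. Cluster 2, led by APOLD1 and LPL, had 17.5% and 16.6% MT-CO1, 3.05% and 2.76% MT-ND2 and 1.51% and 1.53% nuclear members. These are descriptions of clusters with no test.

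**Figure D5:**
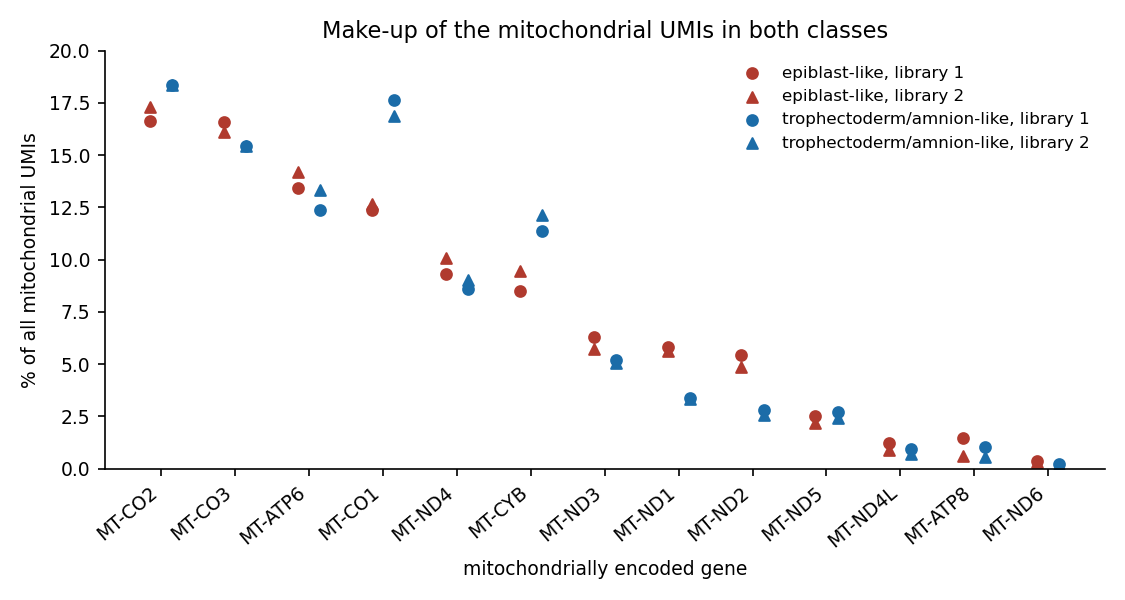
Share of each of the 13 genes in all mitochondrial UMIs, in percent, for epiblast-like (red) and trophectoderm/amnion-like barcodes (blue), with a circle for library 1 and a triangle for library 2. MT-CO1 lies at 12.4% and 12.7% against 17.6% and 16.9%, while MT-ND2 lies at 5.44% and 4.85% against 2.79% and 2.57%.

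Across the ranges the make-up is a description, since mitochondrial genes cut them. Over 20%, MT-CO1 made up 16.01% and 15.7% of the mitochondrial UMIs against 17.2% and 16.4% at 5 to 10%, and MT-ATP6 13.4% and 15.03% against 12.4% and 13.4%. MT-ND2 made up 3.82% and 3.91% at 1 to 5%, 3.12% and 2.88% at 5 to 10% and 2.83% and 2.36% at 10 to 20%. Under 1% the sums were only 2070 and 2354 UMIs, and MT-CO2 made up 27.0% in library 1 but 18.5% in library 2.

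Other nuclear genes of the mitochondrion were counted by lists beside the same comparisons. Of all genes, 26.1% were lower and 26.8% higher between the classes, so that the counts of several lists, such as the citrate cycle, lie near the background. Between the classes, 55 of 79 mitochondrial ribosomal proteins were lower and 1 higher (median log2 fold -0.52), as were 15 of 18 import genes with 0 higher (-0.78). TOMM40, the import channel, had a log2 fold of -2.05 and MRPL12, which also binds the mitochondrial RNA polymerase, one of -1.24. Of genes for mitochondrial transcription and RNA upkeep 15 of 25 were lower and 1 higher. Among these SLIRP, which with LRPPRC keeps mitochondrial messengers stable, had a log2 fold of -1.17. Assembly factors were lower in 20 of 48 and higher in 5, and NDUFAF4, for complex I, had the largest fold with -1.54.

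Of the 4 chain genes outside the symbols, 3 were lower and 0 higher. CYCS, cytochrome c itself, had a mean of 253 CPM in epiblast-like and 79.7 CPM in trophectoderm/amnion-like barcodes (log2 fold -1.55), a larger fold than that of any nuclear member. CYC1 had -0.76 and NDUFAB1 -0.76. Of 14 citrate cycle genes 4 were lower and 2 higher. Of 10 biogenesis factors 6 were lower and 1 higher: the coactivator PPARGC1B had a log2 fold of -3.63 and its relative PPARGC1A one of 2.44, from 3.65 to 16.8 CPM. The mitochondrial stress response genes gave 9 lower and 0 higher of 13, with PSAT1, of serine synthesis, at -3.14. Of 85 cytosolic ribosomal protein genes 8 were lower and 8 higher (median 0.01).

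Over 20% mitochondrial UMIs, where 17.5% of all genes were lower and 8.74% higher, all 85 cytosolic ribosomal protein genes tested were lower (median log2 fold -1.99), a list matched by symbol that holds a few relatives such as RPL22L1. So were 61 of 79 mitochondrial ribosomal proteins with 0 higher (-1.59), 14 of 18 import genes with 0 higher (-1.68), and 4 of 4 chain genes outside the symbols (-2.33). Assembly factors gave 26 lower and 2 higher of 48, citrate cycle genes 7 lower of 14, transcription and RNA upkeep 8 lower of 25 and the stress response 4 lower of 13, these last 3 with 0 higher. Biogenesis factors gave 0 called of 10 in edgeR. CYCS had a log2 fold of -2.82 and the import gene TIMM8B one of -2.86. Of 3 nuclear-retained RNAs tested, NEAT1 (1.29) and KCNQ1OT1 (1.13) were higher, and MALAT1 had -0.18.

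Under 1% the lists moved the other way with 5.63% of all genes higher and 1.2% lower. Higher were 37 of 79 mitochondrial ribosomal proteins, 8 of 18 import genes, 11 of 48 assembly factors, 3 of 4 chain genes outside the symbols and 20 of 85 cytosolic ribosomal protein genes, with 0 lower in each. Of transcription and RNA upkeep genes 1 of 25 was higher.

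The summed mitochondrial members were set against each gene over 14 points, the clusters with at least 20 barcodes in both libraries. Among 10344 genes at 10 CPM or more, log2 levels of COL11A1 were most like theirs (Spearman's rho 0.99), followed by CASC15 (0.96), ATRX (0.96), CENATAC (0.96) and ZNF609 (0.95). The summed nuclear members had a rho of -0.78, and the median over all genes compared was 0.18. These points share libraries and differ in depth, and the values are a description.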

How the data were processed

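The authors deposited raw UMI counts by gene and barcode, 1 table per library; the submitters' processing notes name the build GRCh38 and Cell Ranger 9.0.0. The sources used here give no other step. The droplet kit with 3' chemistry is named per the labels' protocols.

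Barcodes with at least 1000 detected genes were kept. Called doublets (4 and 1, scrublet) stayed in; the caller marks unlike pairs only and its low rate leaves doublets uncounted. UMIs were split at random, with equal chance, into parts A and B. Part A, without members, mitochondrial, ribosomal and list genes, was clustered (scanpy 1.11.5, igraph 0.11.9, 2000 variable genes, 30 components, 15 neighbours, resolution 0.5). Clusters were named from 10 marker lists and stayed unnamed where another list's markers led. They also stayed unnamed where depth was under 1/3 and no marker of the best list was among the leading genes. Names were rebuilt here and may differ from the study's.

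Part B was summed per library and class, and all UMIs per library and range of mitochondrial share, for groups with at least 20 barcodes in both libraries. The test on these sums was edgeR's quasi-likelihood test (version 4.0.16, TMM, filterByExpr, library as a block), with p-values adjusted by Benjamini-Hochberg at 0.05. The SE is the log2 fold over the square root of F. The library block pairs groups because they come from the same library. DESeq2 1.42.0 was an alternative. On simulated counts the step recovered, between the classes, 65 of 92 genes at a fold of 2 and 92 of 97 at a fold of 4. It recovered 32 of 98 and 65 of 97 over 20%, and 47 of 99 and 78 of 93 under 1%. Of the genes simulated without a change, 21 were called between the classes, 2 over 20% and 14 under 1%. Between the classes and under 1% the false calls were a larger part of all calls than the threshold of 0.05 allows.

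Members and lists were chosen with earlier results of these data known. Named were all mitochondrial members, per comparison the 8 largest rises and falls that passed, ran the same way in both libraries and had at least 10 CPM, the tissue isoforms and SDHA to SDHD, and up to 3 genes per list; MRPL49 and PET117, with 0 UMIs over 20%, are among those left out. Members not chosen by this rule are named as not passed, as highest or lowest, or as partners. Coordinates are from RefSeq (GRCh38.p14), which matched 104 of 105 symbols; NDUFA4 was not matched.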

Additional observations from a re-analysis of the deposited data

Results flagged for a closer look

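Barcodes with fewer than 1000 detected genes were left out of every comparison, and mitochondrial UMIs were counted in them too. In library 1, 980 such barcodes with a median of 384 UMIs held 20.6% of their UMIs in the 13 mitochondrial members, and in library 2, 1013 barcodes with a median of 485 UMIs held 14.5%. Both values are above those of the kept barcodes, which were 6.39% and 6.22%. The median barcode among those left out had 1.67% and 2.94%, and 123 and 72 of them were over 20%. Nuclear members made up 2.11% and 1.65% of the UMIs outside the mitochondrial genes there.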

How the results depend on the processing

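Between the classes 32 to 46 nuclear members were called over 10 alternatives, against 37, and 4 to 7 mitochondrial ones against 6. Without the library block these were 33 and 5. The block changed no other direction, and with no replicate block 74 and 52 members were called over 20% and under 1%. Over 20% the count was 72 to 75, except among barcodes of 5000 to 20000 UMIs, where it was 0. Under 1% it was 48 to 69, but 0 in that band and 0 without cluster 5, where UQCRQ turned to -0.070; the cause was not tested. Those 2 settings were chosen after seeing the data and leave fewer barcodes. Except for the band of 5000 to 20000 UMIs over 20%, the share of all genes called under each setting is not given here. The counts of members are thus not set against that share. Leaving out a library gave no test: from summed UMIs the median fold of nuclear members was -0.40 and -0.32 between the classes, -1.48 and -1.69 over 20% and 0.44 and 0.59 under 1%, and that of mitochondrial members between the classes 0.10 and -0.20, so its sign differs. The mean of both, -0.05, differs in sign from the fitted 0.07. The mitochondrial share was 6.48% with no minimum of genes and 5.95% at no more than 20% mitochondrial UMIs, and nuclear members made up 1.55% of all UMIs. Over all barcodes kept by the other gene, share and depth minimums or denominators tried, the relation kept its sign, with a mean rho of -0.44 to -0.25; its values in a depth band and in clusters 0 and 6, some of them positive, are given above. No read-through gene or pseudogene was among the members, and under 1% the trophectoderm/amnion-like class alone could not be tested. Over 20% the named falls rest on 4 to 61 UMIs per library, which limits their precision.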
